A study of Mus musculus with 2 samples.

Results

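The genes described here are 5 miRNA genes at 3 mouse loci: Mir338 and Mir3065, which lie on opposite strands of the same DNA, Mir219a-2 and Mir219b, which do so as well, and Mir219a-1, a further copy of mir-219a elsewhere. They were chosen by name, and make up 5 of the 2202 miRNA genes in the deposited count tables. The data are microRNA sequencing of total RNA from hippocampus of male mice of the strain B6CASTF1/J, an F1 hybrid of a C57BL/6 and a CAST/Ei parent, at 18 to 20 months of age, with a labelled size range under 30. There was 1 group of 2 libraries, which the labels number as biological replicates 1 and 2 and which have a tissue entry each but share 1 donor entry. No treatment or genotype was compared, and the labels do not say outright that the tissues came from separate animals, so any spread or p-value given here measures differences between these libraries, which may be technical.

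A microRNA is cut from a hairpin in a longer transcript to a short RNA, which guides Argonaute proteins to messenger RNAs that match its seed, the bases near its 5′ end, and lowers their translation or stability. In the mouse, miR-219 and miR-338 rise as oligodendrocyte precursors, the dividing cells that give rise to myelinating glia, leave the cell cycle and mature. Genes described as their targets keep precursors dividing or hold back myelin genes, among them the growth factor receptor gene Pdgfra and the transcription factor genes Sox6 and Hes5. Because a hairpin is close to an inverted repeat, the opposite strand of its DNA can fold as well, and Mir3065 and Mir219b are annotated on such opposite strands.

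The mature sequences that RefSeq lists for the 5 genes are shown because a read is told apart by its sequence and its strand. For Mir219a-2 and Mir3065 only the 5p sequence is listed, so a product of the other side of the hairpin would have no line here. Capitals mark the seed, bases 2 to 8 counted from the 5′ end.
miR-338-3p of Mir338: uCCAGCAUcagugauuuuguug
miR-338-5p of Mir338: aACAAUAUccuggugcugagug
miR-3065-5p of Mir3065: uCAACAAAaucacugaugcugg
miR-219a-5p of Mir219a-2 and Mir219a-1: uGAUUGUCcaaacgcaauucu
miR-219a-1-3p of Mir219a-1: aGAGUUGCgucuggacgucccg
miR-219b-5p of Mir219b: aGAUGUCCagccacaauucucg
miR-219b-3p of Mir219b: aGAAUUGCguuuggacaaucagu
No seed in these lines is shared between partners on opposite strands. The seed of miR-219a-5p was found in 1 other gene, the other mir-219a copy, and the seeds of the other mature sequences were found in no other gene of the RefSeq table.

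The hairpins follow, from RefSeq on build GRCm38.p6, with the mature sequences in capitals, to show how much of each pair is the same DNA read from either strand.
Mir338, chr11:120014765-120014862, minus strand: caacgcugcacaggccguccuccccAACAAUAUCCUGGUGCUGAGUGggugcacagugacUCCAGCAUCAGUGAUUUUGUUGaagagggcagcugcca
Mir3065, chr11:120014767-120014853, plus strand: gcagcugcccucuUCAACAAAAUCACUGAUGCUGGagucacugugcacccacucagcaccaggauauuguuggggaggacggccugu
Mir219a-2, chr2:29845631-29845727, minus strand: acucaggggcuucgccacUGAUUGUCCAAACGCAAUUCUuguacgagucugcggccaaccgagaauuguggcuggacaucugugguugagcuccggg
Mir219b, chr2:29845647-29845711, plus strand: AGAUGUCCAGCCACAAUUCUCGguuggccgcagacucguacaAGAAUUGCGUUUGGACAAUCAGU
Mir219a-1, chr17:34024983-34025092, minus strand: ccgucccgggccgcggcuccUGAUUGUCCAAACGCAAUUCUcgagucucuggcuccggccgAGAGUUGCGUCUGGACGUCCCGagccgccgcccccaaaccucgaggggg
GENCODE M21 places each of the 5 hairpins at the same start, end and strand on mm10.

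Mir338 (ENSMUSG00000065600.1) lies in an intron of Aatk, on the strand of that gene, which codes for an apoptosis-associated tyrosine kinase. Mir3065 (ENSMUSG00000105524.1) lies in the same intron on the other strand. All 87 nt of its hairpin overlap the 98 nt of Mir338. Mir219a-2 (ENSMUSG00000065485.1) and Mir219b (ENSMUSG00000105010.1) overlap no gene other than each other, and the nearest is Urm1, 629 bp from Mir219a-2. All 65 nt of Mir219b overlap the 97 nt of Mir219a-2. Mir219a-1 (ENSMUSG00000065555.1) overlaps an exon of the non-coding gene Gm26940 on its strand and lies 303 bp from Ring1, which codes for a Polycomb protein. Its opposite strand carries Mir219c, which is not among the 5 genes.

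**Figure D1:**
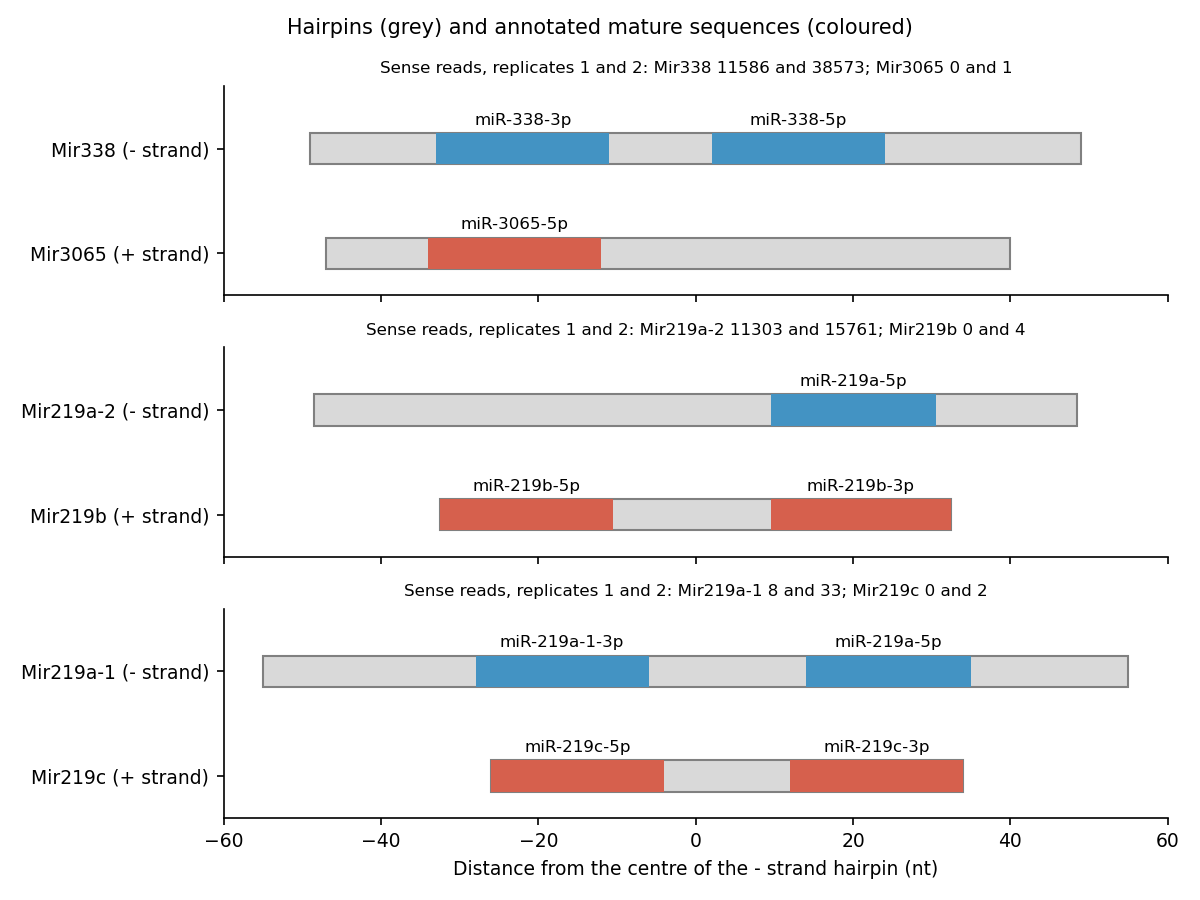
Hairpins as grey bars and annotated mature sequences as coloured blocks at the 3 loci, by distance in nt from the centre of the minus-strand hairpin, with the minus-strand gene above its plus-strand partner. miR-3065-5p lies opposite miR-338-3p with its start moved by 1 nt, and miR-219b-3p lies opposite miR-219a-5p.

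The facing mature sequences were complementary over nearly their whole length. The reverse complement of miR-338-3p and miR-3065-5p are shown with the shared 21 nt in capitals.
Reverse complement of miR-338-3p: CAACAAAAUCACUGAUGCUGGa
miR-3065-5p: uCAACAAAAUCACUGAUGCUGG
Of the 22 nt of each, 21 overlapped and all 21 were complementary. All 21 nt of miR-219a-5p likewise faced miR-219b-3p, which is 23 nt long. The strand of a read is thus what separates each gene from its partner.

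The predicted minimum free energies of the hairpins (RNAfold) were -41.9 kcal/mol for Mir338 and -39.0 kcal/mol for its partner Mir3065. They were -48.2 kcal/mol for Mir219a-2 and -18.8 kcal/mol for Mir219b, whose annotated hairpin is the shorter at 65 nt against 97 nt, and -58.7 kcal/mol for Mir219a-1. The energy of Mir3065 was close to that of Mir338, while Mir219b and Mir219a-2 lay further apart. GC content was 56.1% in Mir338, 55.2% in Mir3065, 55.7% in Mir219a-2, 49.2% in Mir219b and 69.1% in Mir219a-1.

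Sense-strand reads of miRNA genes numbered 3758318 in replicate 1 and 5598792 in replicate 2. A level here is the number of sense reads per 1000000 sense reads over all miRNA genes (CPM). It is not divided by length, since the mature RNAs counted are of nearly equal length. Of the 2202 genes, 384 (17.4%) had at least 10 sense reads in both libraries and are called detected. Of all reads in the tables, 51.5% in replicate 1 and 46.7% in replicate 2 mapped to several places, and no such read is counted for a gene. Counts of 0 allow up to 3 reads, or 0.798 CPM in replicate 1 and 0.536 CPM in replicate 2. Intervals and such limits cover counting error only, because reads from PCR that carry no molecular identifier need not be separate molecules.

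Mir338 and Mir219a-2 were well above most miRNA genes in this tissue, while Mir219a-1, Mir219b and Mir3065 had from 0 to 33 reads. The 5 genes summed to 22897 reads in replicate 1 and 54372 in replicate 2, or 0.609% (Wilson 95% interval 0.601 to 0.617%) and 0.971% (0.963 to 0.979%) of the sense reads. Mir338 and Mir219a-2 gave 99.97% of that sum in replicate 1 and 99.93% in replicate 2. Thus 2 of the 5 genes were detected.

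Mir338 had 11586 sense reads in replicate 1 and 38573 in replicate 2. Its level was 3083 CPM (Wilson interval 3027 to 3139) in replicate 1 and 6890 CPM (6821 to 6958) in replicate 2, with a mean of 4986 ± 2692 CPM (SD, n = 2). It stood at rank 52 of all miRNA genes in replicate 1 and at rank 31 in replicate 2. The libraries differed by far more than the counting intervals, and the SD was 53.99% of the mean. The genes next to it in mean level, Mir30d at 5252 ± 379 CPM and Mir335 at 4951 ± 543 CPM (n = 2 each), were within its SD.

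Mir219a-2 had 11303 sense reads in replicate 1 and 15761 in replicate 2. Its level was 3007 CPM (interval 2953 to 3063) in replicate 1 and 2815 CPM (2772 to 2859) in replicate 2, with a mean of 2911 ± 136.04 CPM (SD, n = 2). Its rank was 53 in each library. On the CPM scale it was the steadier of the leading genes, with an SD of 4.67% of the mean. The genes next to it, Mir369 at 3036 ± 475 CPM and Mir708 at 2824 ± 199 CPM (n = 2 each), were not separated from it beyond the spread.

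Mir338 and Mir219a-2 were at about the same level in replicate 1, where their intervals overlapped, and Mir338 was the higher in replicate 2. The ratio of Mir338 to Mir219a-2 reads was 1.03 in replicate 1 and 2.45 in replicate 2. A ratio within a library needs no scaling, but reads that map to both mir-219a copies are not counted for Mir219a-2. The ratio thus compares counted reads and not the levels of the mature RNAs. The odds ratio of replicate 1 over replicate 2 was 0.419 (95% interval 0.406 to 0.432), and the log10 of its p in Fisher's exact test, two-sided, was -625.1. That test compares the reads of these libraries and not conditions.

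Each antisense partner of the leading genes had close to no counted reads. Mir3065 had 0 sense reads in replicate 1 and 1 in replicate 2. Mir219b had 0 sense reads in replicate 1 and 4 in replicate 2. All of these are at or close to the 3 reads that a count of 0 allows, so whether the partners were expressed was not detectable at this depth. Mir219b also shares a stretch of 20 nt with Mir219c, within miR-219b-3p. Reads of miR-219b-3p that lie within it would map to several places and go uncounted.

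The stranded columns mirrored each other at both pairs. In the opposite-strand column, Mir3065 carried 11586 reads in replicate 1 and 38573 in replicate 2, which are the sense reads of Mir338. Mir219b carried 11303 and 15761 there, which are the sense reads of Mir219a-2. In turn, Mir338 had 0 and 1 opposite-strand reads in replicates 1 and 2, and Mir219a-2 had 0 and 4. The unstranded column held 0 for all 4 genes in each library. That column's summary line for ambiguous reads stood at 287630 in replicate 1 and 425131 in replicate 2, and the sense reads of the 4 genes came to 7.96% and 12.8% of those numbers.

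**Figure D2:**
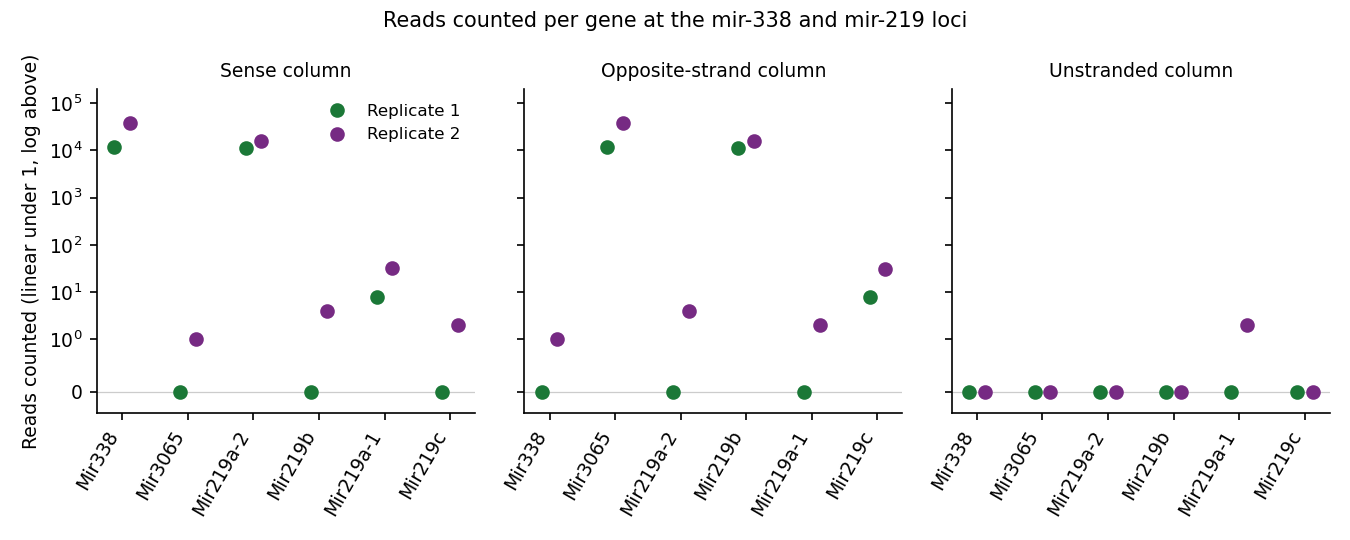
Reads counted per gene in the sense, opposite-strand and unstranded columns, with a point for each library; the y axis is linear under 1 and logarithmic above. Mir338 and Mir219a-2 stand at 11303 to 38573 in the sense column, their partners carry the same numbers in the opposite-strand column, and all 4 are at 0 in the unstranded column.

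Of the sense reads at the Mir338 locus, 100% in replicate 1 (11586 of 11586, Wilson 95% interval 99.97 to 100%) and 99.997% in replicate 2 (38573 of 38574, interval 99.99 to 100%) were on the Mir338 strand. Mir338 was therefore at least 3862-fold higher than Mir3065 in replicate 1, taking 3 reads per library as the limit for the partner. In replicate 2 the ratio over the 1 read of Mir3065 was 38573, with a counting interval of 6923 to 1523592.

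At the Mir219a-2 locus, 100% in replicate 1 (11303 of 11303, interval 99.97 to 100%) and 99.97% in replicate 2 (15761 of 15765, interval 99.93 to 99.99%) were on the Mir219a-2 strand. In counted reads, Mir219a-2 was at least 3768-fold higher than Mir219b in replicate 1, and 3940-fold higher in replicate 2 (counting interval 1539 to 14463). Reads of either gene that map to several places are not part of these ratios. The strand shares were not called different between libraries at either locus (Fisher's exact test, two-sided, p = 1 for Mir338 and p = 0.145 for Mir219a-2, and adjusted over the 3 loci, p = 1 and p = 0.436). The partners had 0 and 1 reads at the Mir338 locus and 0 and 4 at the Mir219a-2 locus in replicates 1 and 2. With so few partner reads the test could hardly call a difference, so it does not show that the shares were equal.

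Such one-sidedness was usual among antisense pairs of miRNA genes. The annotation holds 32 pairs that overlap on opposite strands, from 64 genes, and 25 of them had at least 10 sense reads in each library. In 22 of the 25 pairs the stronger gene held at least 99% of the sense reads in each library, and the median share was 100% in both. By summed level the Mir338 pair ranked 5 and the Mir219a-2 pair 6 of the 32. The pairs above them were led by Mirlet7e (24326 ± 986 CPM, partner Gm25927), Mir191 (13833 ± 2282 CPM, partner Gm24083), Mir126a (11290 ± 797 CPM, partner Mir126b) and Mir30e (7456 ± 1459 CPM, partner Mir30f), where values are the mean ± SD of the pair over both libraries. Those 4 partners had 0 sense reads in each library, apart from 1 read of Gm24083 in replicate 2.

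**Figure D3:**
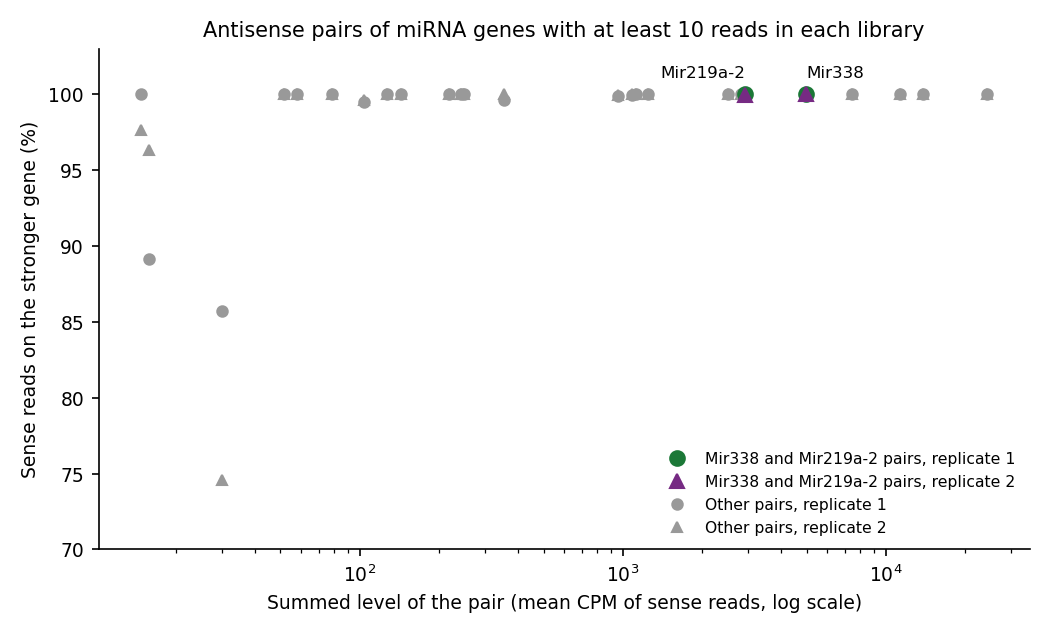
Share of the sense reads of an antisense pair that fall on its stronger gene (y axis, %, from 70) against the summed level of the pair (x axis, mean CPM, log scale) for the 25 pairs with at least 10 reads in each library. The Mir338 and Mir219a-2 pairs sit at or just under 100% with most other pairs, and the 3 pairs under 99% are among those with the fewest reads.

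Mir219a-1, the copy on chromosome 17, was read far less than Mir219a-2. It had 8 sense reads in replicate 1 and 33 in replicate 2, or 2.13 CPM (interval 1.08 to 4.20) and 5.89 CPM (4.20 to 8.28), with a mean of 4.01 ± 2.66 CPM (SD, n = 2). Mir219a-2 had 1413 times as many reads in replicate 1 (counting interval 717 to 3273) and 478 times as many in replicate 2 (340 to 694). Mir219c, on the other strand, had 0 and 2 sense reads in replicates 1 and 2. In replicate 2, the unstranded column kept 2 reads for Mir219a-1, the only reads of the 5 genes in that column.

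The mir-219a copies cannot be compared as transcription units from these counts. The mature miR-219a-5p printed above is identical in both hairpins, and an exact search of the GENCODE M21 transcripts found it in Mir219a-1 and Mir219a-2 alone. The longest stretch the hairpins share is 22 nt, against 21 nt for the mature sequence, so a full-length read of miR-219a-5p fits either gene on its sequence alone. Reads that map to several places number 5458072 in replicate 1 and 7527048 in replicate 2, and how many of them are miR-219a-5p was not tested. The counts of Mir219a-1 and Mir219a-2 therefore give the reads placed at 1 gene, not the level of miR-219a-5p. By contrast, miR-338-3p and miR-338-5p were each found in Mir338 alone, and its hairpin shares at most 13 nt with any other miRNA gene on the same strand. The tables count hairpins, so which arm the reads came from is not resolved for any of the 5 genes. Exact full-length reads of miR-219a-5p would map to both copies and go uncounted. The reads counted for Mir219a-2 would then be others, such as longer or altered miR-219a-5p reads or reads of the rest of the hairpin. Their make-up was not tested.

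Between the libraries, Mir338 and Mir219a-2 moved in opposite directions. Library sizes were scaled with TMM, which sets the bulk of detected genes equal, and an exact binomial test, two-sided, was run on each detected gene and adjusted over the 384 detected genes. The test called 250 of the 384 (65.1%), 131 higher in replicate 1 (34.1%) and 119 higher in replicate 2 (31.0%), and 2 of the 2 detected members were called. With a background of 65.1%, being called says little about the members by itself.

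On the TMM scale, Mir338 was 1.79-fold higher in replicate 2 (counting interval 1.76 to 1.83), a log2 ratio of replicate 1 over replicate 2 of -0.84. The log10 of its adjusted p was -728.5 (exact binomial test). Mir219a-2 was 1.33-fold higher in replicate 1 (1.30 to 1.36), a log2 ratio of 0.41 with an adjusted p of 8.0e-116 in the same exact test. Of the detected genes, 77.9% had a smaller absolute ratio than Mir338 and 45.1% a smaller one than Mir219a-2, and the median gene differed 1.36-fold. Scaling by total counts moves the median log2 ratio of all detected genes to -0.31. The log2 ratio was then -1.16 for Mir338 and 0.10 for Mir219a-2, so the size of the difference for Mir219a-2 depends on the scaling. Mir219a-1, Mir219b and Mir3065 had fewer than 10 reads in at least 1 library and were not tested.

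**Figure D4:**
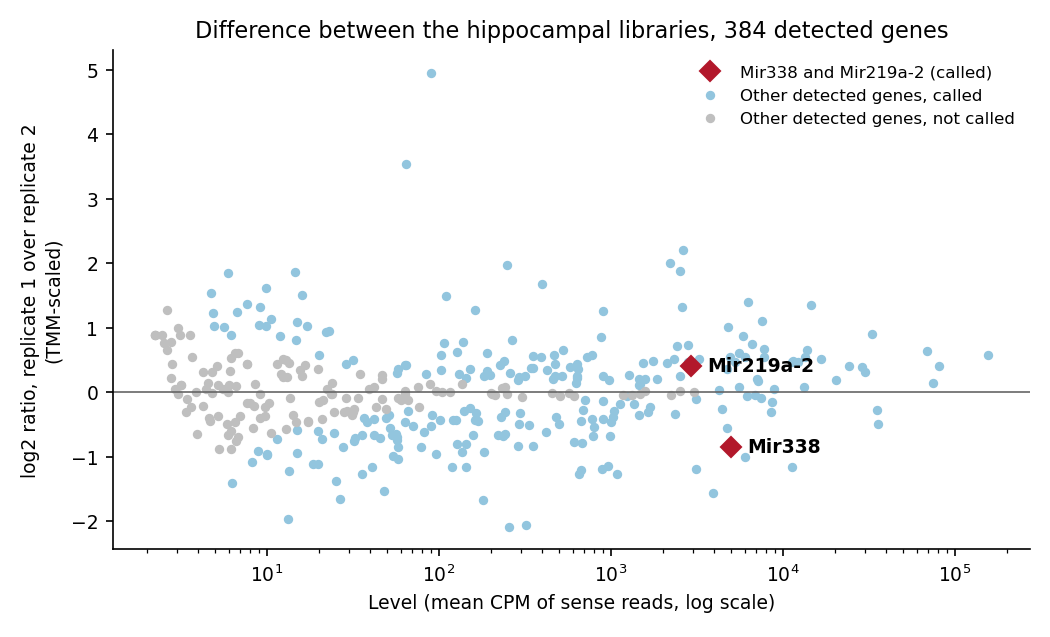
Log2 ratio of replicate 1 over replicate 2 after TMM scaling (y axis) against mean level in CPM (x axis, log scale) for the 384 detected genes, with Mir338 and Mir219a-2 as diamonds. Mir338 lies at -0.84 and Mir219a-2 at 0.41, within the range of other genes at their levels.

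Among other microRNAs linked to the oligodendrocyte lineage, levels were likewise uneven. Beside the 5 genes, a list for oligodendrocyte differentiation held 5 more, all detected. Of these, 4 were called, 2 in each direction, beside 65.1% of all detected genes called. The median log2 ratio of the whole list was -0.12, beside 0.01 over all detected genes. Mir23a, described in mouse glia as promoting myelination, was the highest of the whole list at 12113 CPM in replicate 1 and 10786 CPM in replicate 2. Mir138-1, which mature oligodendrocytes and neurons both express, had 3585 and 5331 CPM in replicates 1 and 2. The other called genes were Mir138-2, with 1843 and 2900 CPM in the same order, and Mir146, with 665 and 615 CPM. Mir32, at 18.1 and 24.5 CPM in replicates 1 and 2, did not pass (adjusted p = 0.676, exact binomial test).

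The list for oligodendrocyte precursors had 8 of 11 genes detected, all of them called. Replicate 1 was the higher for 5 and replicate 2 for 3, with a median log2 ratio of 0.32, beside 34.1% and 31.0% of all detected genes called in those directions. The list summed to 7219 and 18204 CPM in replicates 1 and 2, so its sum and its median differ in direction, and Mir125a made up most of the sum. It was led by Mir125a, at 5924 CPM in replicate 1 and 16583 CPM in replicate 2. Mir17, a gene of the mir-17 to 92 cluster that promotes precursor division in mice, had 444 and 478 CPM in replicates 1 and 2. After TMM scaling, on which the calls rest, Mir17 was higher in replicate 1 (log2 ratio 0.21). Mir212 had 221 and 488 CPM. The other genes called higher in replicate 1 were Mir20a, Mir9-3, Mir18 and Mir9-1, and those called higher in replicate 2 were Mir125a, Mir212 and Mir92-1. In whole tissue, fewer cells of a type and less RNA per cell cannot be told apart, and none of these genes belongs to 1 cell type alone.

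**Figure D5:**
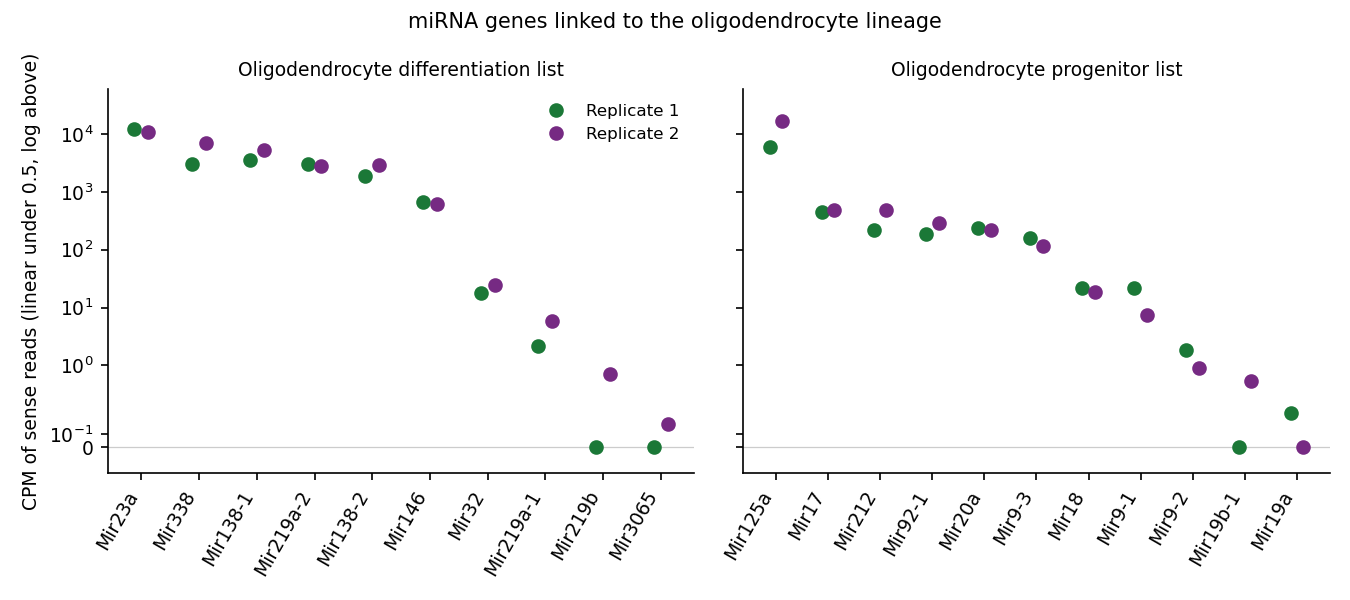
CPM of sense reads in each library (y axis, linear under 0.5 and logarithmic above) for the genes of the oligodendrocyte differentiation and precursor lists. Mir338 and Mir219a-2 lie with Mir23a, Mir138-1 and Mir138-2 between 1843 and 12113 CPM, while Mir219a-1, Mir219b and Mir3065 lie under 6 CPM.

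Markers of other cells in the tissue were present and moved between the libraries as well. The neuron list (6 of 9 detected) summed to 50764 and 52345 CPM in replicates 1 and 2, led by Mir132, Mir128-1 and Mir137 (median log2 ratio 0.17). All 6 detected genes were called, 4 higher in replicate 1 and 2 (Mir138-1 and Mir138-2) higher in replicate 2. Of all detected genes, 34.1% and 31.0% were called in those directions. The sum, in CPM, and the median, after TMM scaling, differ in direction here too. The undetected genes of the neuron list were Mir124a-1, with 2 and 5 sense reads in replicates 1 and 2, Mir124a-2, with 0 and 2, and Mir124a-3, with 0 in each. Reads that map to several places are not counted, so these low counts do not show that the mature RNA was absent. The list sums leave such reads out as well. The astrocyte list (5 of 5 detected) summed to 35125 and 30833 CPM, led by Mir29a, Mir143 and Mir21a, and the microglia and leukocyte list (5 of 5) to 3700 and 3395 CPM, led by Mir342, Mir150 and Mir146. Their median log2 ratios were 0.51 and 0.43. In the astrocyte list 4 genes were called higher in replicate 1, while Mir29b-1 was called higher in replicate 2 (log2 ratio -0.41). In the microglia and leukocyte list 4 genes were called, all higher in replicate 1, beside the same 34.1% of all detected genes. The astrocyte list shares Mir143 (9621 and 5562 CPM in replicates 1 and 2) with the endothelial and mural list, so the shifts of those lists are not separate. The endothelial and mural list (Mir126a, Mir143 and Mir145a) summed to 22045 and 16510 CPM, and all 3 genes were called higher in replicate 1 (median log2 ratio 1.11), beside 34.1% of all detected genes. The choroid plexus list (4 of 5 detected, led by Mir204, Mir1298 and Mir1264) summed to 873 and 1555 CPM in replicates 1 and 2, and all 4 detected genes were called higher in replicate 2 (median log2 ratio -1.14), as Mir338 was, beside 31.0% of all detected genes. The part of these shifts in the difference of Mir338 was not tested.

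The genes nearest to the leading members in log2(CPM + 1) over both libraries were Mir92b, Mir22 and Mir138-1 for Mir338, at distances of 0.21, 0.36 and 0.43 log2 units. Mir92b had 3326 and 6101 CPM in replicates 1 and 2. For Mir219a-2 they were Mir708, Mir107 and Mir378a, at 0.07, 0.24 and 0.25 log2 units. With 2 libraries, this likeness is one of level and of direction between them only.

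To place the seeds in the messenger RNAs of the lineage, 8 genes discussed in the field as targets of miR-219 or miR-338 were searched for the 7 bases that pair with the seeds of miR-219a-5p, miR-338-3p, miR-3065-5p and miR-219b-5p, on the mRNA strand of the longest annotated 3′ UTR. The seed of miR-219a-5p pairs with gacaatc, which was present in 6 of the 8 UTRs, at 9 places. Over 20998 mouse genes, 4.80% held it, and 11.1% of the 5379 with a UTR of at least 2000 nt. The seed of miR-338-3p pairs with atgctgg, present in 3 of the 8 UTRs, at 5 places, against 13.1% of all genes and 29.5% of those with long UTRs. The seeds searched for the antisense partners pair with tttgttg for miR-3065-5p, in 3 of the 8, against 18.9% of all genes and 44.5% of those with long UTRs, and ggacatc for miR-219b-5p, in 0 of the 8, against 6.74% and 15.1%. The seeds of miR-338-5p, miR-219a-1-3p and miR-219b-3p were not searched. The genes were chosen as known targets, so the shares are a description of the sequences.

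A selection of the 14 sites for miR-219a-5p and miR-338-3p, picked after all were seen, is shown as 30 bases of the GENCODE M21 transcript, with the 7 pairing bases in capitals and their mm10 position.
Pdgfra, a receptor that keeps precursors dividing, for miR-219a-5p at chr5:75197713-75197719, plus strand: ttctatttttatgatGACAATCaaagcttg
Sox6, a transcription factor that holds back differentiation, for miR-219a-5p at chr7:115474015-115474021, minus strand: atgggaatggagaatGACAATCacagagat
Sox6, for miR-338-3p at chr7:115471792-115471798, minus strand: gcacaactcactgacATGCTGGactgacat
Zbtb18, a transcriptional repressor, for miR-219a-5p at chr1:177450506-177450512, plus strand: tattaatctagaggaGACAATCaatgtctg
Zbtb18, for miR-338-3p at chr1:177449158-177449164, plus strand: tggaaaatttctgaaATGCTGGattatcta
An A opposite the first base of the microRNA followed each of the 5 sites shown, but over all sites it followed 7 of 9 for miR-219a-5p and 2 of 5 for miR-338-3p. Sox6, Zbtb18 and Elovl7, which codes for a fatty acid elongase, held matches for miR-219a-5p and miR-338-3p alike, Pdgfra, Foxj3 and Etv5 held matches for miR-219a-5p and 0 for miR-338-3p, and Hes5 and Lingo1 held 0 for either. No messenger RNA was measured here, and a match of 7 bases does not show a site in use.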

How the data were processed

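The deposited tables hold raw whole-number read counts for each miRNA gene, not normalized, in an unstranded and 2 stranded columns below 4 summary lines. Per the labels, the authors used mm10 and GENCODE M21. The aligner is not given in the sources used here, nor is the counter. The stranded column with the larger total was taken as sense. The summary lines (9.53% and 14.4% of reads unmapped in replicates 1 and 2, besides those mapped to several places) were left out of every sum and test. GENCODE M21 named all 2202 identifiers, and RefSeq (GRCm38.p6) gave sequences for all 5 genes. TMM factors came from edgeR 4.0.16 over genes with at least 10 reads in each library. Exact binomial tests (SciPy 1.17.1) were adjusted by Benjamini-Hochberg and called under 0.05. They were checked on simulated counts with counting error only, so that check does not cover any other spread between libraries. P-values too small for ordinary arithmetic are given as log10. Hairpins were folded with ViennaRNA 2.7.2. Mature sequences were searched in annotated transcripts; the genome sequence was not used here.

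The members, lists, targets and tests were chosen with earlier results of these data known. Named genes were the 5 members, the 5 highest antisense pairs, the 3 genes nearest in level to Mir338 and to Mir219a-2, the 3 highest of each cell type list, and genes sharing a seed. Others were named after their values were seen. Alternatives were other count columns, denominators, scalings (DESeq2 1.42.0, total counts), detection limits, pair definitions and each library left out.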

Additional observations from a re-analysis of the deposited data

How the results depend on the processing

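The unstranded column removes the leading genes: the 5 genes then sum to 0.193 CPM, with 0 for Mir338, 0 for Mir219a-2 and 0.193 CPM for Mir219a-1. Per 1000000 of all reads, unmapped and multiply mapped ones included, the sum was 2766, Mir338 was at 1742 and Mir219a-2 at 1022. Without the most abundant gene in the denominator, Mir219a-2 was at 3453 CPM, the sum at 9333 CPM and Mir338 at 5874 CPM. The sum and Mir338 stayed within 1 SD (2559 and 2692 CPM), and Mir219a-2, with an SD of 136 CPM, did not. A smaller denominator raises every gene of a library alike, so this contrast comes from the SDs alone. With a library left out, the sum was 6092 to 9711 CPM, Mir338 3083 to 6890 CPM and Mir219a-2 2815 to 3007 CPM. The test between libraries called 244 to 271 genes over its alternatives, including TMM over all genes, which was added after the data were seen. The number tested changed with the detection limit. The called share was 34.8% of 752 genes with no limit and 72.6% of 336 genes with at least 20 reads. With total counts 28.0% of called genes were higher in replicate 1, against 52.4% with TMM. The log2 ratio was -1.16 to -0.84 for Mir338 and 0.10 to 0.41 for Mir219a-2, called in each. With a limit of 5 reads, Mir219a-1 was tested and not called (log2 ratio -1.15, adjusted p = 0.0807, exact binomial test). Strand shares and the ratio of Mir338 to Mir219a-2 were the same through the opposite-strand columns. At both loci those columns hold the same counts as the sense columns, so this had to be so and is no separate check. The pairs at or above 99% numbered 22 of 25 in the main setting and with at least 20 nt of overlap. They numbered 22 of 22 with at least 100 reads a pair, 22 of 26 without replicate 1 and 24 of 26 without replicate 2. With a library left out there is no test between libraries. No paired analysis was possible because there is 1 group. Depth limits Mir3065, Mir219b and Mir219a-1. Reads that map to several places limit both mir-219a copies and can limit Mir219b.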

Other observations

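Of the 25 antisense pairs with at least 10 sense reads in each library, 3 had under 99% of them on the stronger gene in at least 1 library, and these were named after their values were seen. Mir24-1, with its partner Mir3074-1, held 85.7% of the reads of its pair in replicate 1 and 74.6% in replicate 2 (14 and 48 partner reads). Mir486, with Mir3107, held 89.1% and 96.3%, and Mir9-1, with Gm25641, held 100% and 97.7%. Reads that map to several places are not counted, which can lower a gene whose mature sequence has copies elsewhere. Mir24-1 and Mir9-1 are named as copies among several. How far uncounted reads shape the shares of these 3 pairs was not tested. In 15 of the 25 pairs the partner had no read in either library. The pairs of Mir338 and Mir219a-2 were not among those 15, with 1 and 4 partner reads in replicate 2.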
